A study of Mus musculus with 24 samples.

Results

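The genotype-by-age interaction in hippocampal microglia asks, for each gene, whether the difference between transgenic and control mice at 6 months was the same as the difference at 4 months. It was computed from 16 of the 24 libraries of the series, 4 in each of 4 groups, as (tg minus wt at 6 months) minus (tg minus wt at 4 months) on the log2 scale. The libraries at 9 months were not part of it. All groups are microglia of male mice. The tg groups are mice of a transgenic amyloid model aged 4 and 6 months, whose transgenes include APPswe, an APP gene with the Swedish mutation, driven by the mouse prion promoter. The wt groups are controls of the same ages without the transgenes. Living nucleated cells that were CD11b-high, CD45-intermediate and CD49d-negative were sorted, so every library is a bulk pool of sorted cells, and a smaller number of expressing cells cannot be told apart from less RNA in each. Nothing in the labels ties a replicate to an animal of its own, so p-values here measure only how far these samples spread, which may be technical.

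Microglia are the resident macrophages of the brain. In mice with amyloid plaques, microglia near plaques take on a state called disease-associated microglia (DAM), described in 2 steps. Stage 1 includes the receptor adaptor Tyrobp, the lipid carrier Apoe and several lysosomal genes, and stage 2 adds phagocytic, lipid-metabolic and secreted products such as Clec7a, Lpl, Cst7, Igf1 and Spp1. Entry into stage 2 requires TREM2, a receptor for lipids and lipoproteins that signals through TYROBP and the kinase SYK, while genes of the resting (homeostatic) state such as P2ry12, Tmem119 and Cx3cr1 are reduced in DAM. These lists were written from general knowledge and are described below by counts and medians.

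The 3 stage 2 genes with the smallest interaction p-values were Cst7, Igf1 and Clec7a, and the 250 bases before the annotated start of each are shown because for each of them all 4 tg libraries at 6 months lay above the other 12. The sequences are from RefSeq on the build GRCm38.p6: Cst7 at chr2:150570165-150570414 on the plus strand, Clec7a (the first of 2 entries) at chr6:129472780-129473029 on the minus strand and Igf1 at chr10:87860861-87861110 on the plus strand. Capitals mark matches, on either strand, to GGAAGT (a core motif of the myeloid factor PU.1), CACGTG (the E-box read by the lysosomal regulators TFEB and MITF) or TGANTCA (the AP-1 site).
Cst7: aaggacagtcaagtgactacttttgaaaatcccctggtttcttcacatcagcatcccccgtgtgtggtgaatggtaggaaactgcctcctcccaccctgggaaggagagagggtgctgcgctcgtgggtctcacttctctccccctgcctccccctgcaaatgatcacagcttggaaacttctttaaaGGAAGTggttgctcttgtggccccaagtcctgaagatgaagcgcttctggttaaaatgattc
Clec7a: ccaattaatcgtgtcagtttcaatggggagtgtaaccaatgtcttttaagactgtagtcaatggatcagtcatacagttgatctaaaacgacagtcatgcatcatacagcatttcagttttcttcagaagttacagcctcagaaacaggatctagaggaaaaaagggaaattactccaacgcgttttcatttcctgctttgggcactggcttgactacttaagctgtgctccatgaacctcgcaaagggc
Igf1: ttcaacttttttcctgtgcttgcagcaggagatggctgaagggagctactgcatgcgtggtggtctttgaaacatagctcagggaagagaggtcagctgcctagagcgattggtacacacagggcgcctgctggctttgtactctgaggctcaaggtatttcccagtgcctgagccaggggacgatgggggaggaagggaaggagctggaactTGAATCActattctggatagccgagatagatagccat
The Cst7 window held GGAAGT at 62 to 57 bases before the start, as did 19.7% of the 32851 windows of this length in the table. The Igf1 window held the AP-1 letters at 37 to 31 bases before the start, as did 6.75% of all windows. No window of the 3 held CACGTG, found in 6.02% of all, and none of these letters were in the Clec7a window. A match is a description of the letters only.

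The 16 libraries held 8147240 to 12358124 counts, and levels are given as CPM (counts relative to the library total, scaled by TMM factors). A level of 3 counts, the limit that a count of 0 allows, equals 0.255 to 0.330 CPM, which covers counting error only. After removal of genes under 1 CPM in more than 12 libraries, 14303 genes were tested by edgeR's quasi-likelihood test with Benjamini-Hochberg adjustment, and a gene is called at an adjusted p under 0.05. The median standard error (SE) of the interaction was 0.62 on the log2 scale, which limits what can be detected gene by gene. Replicate 3 of wt at 6 months stood apart on the first principal component (142.8, others −40 to 21.4). It had the fewest detected genes (14129, next lowest 15709). Replicate 3 of tg at 6 months stood apart on the second (103, others −31 to 50.7). The genes App and Prnp did not mark the tg libraries. App was at 81.5 to 274 CPM in the 8 wt libraries and 98.5 to 197 CPM in the 8 tg libraries, so the groups overlapped. Prnp was at 0 to 29.5 and 8.25 to 38 CPM. These microglial counts therefore do not check the genotype labels.

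A single gene of 14303, Cst7 (ENSMUSG00000068129), passed the test of the interaction. Cst7 encodes cystatin F, an inhibitor of lysosomal cysteine proteases. At 4 months its level was 12.2, 5.07, 11.4 and 13.3 CPM in wt and 12.3, 10.7, 12 and 15.2 CPM in tg. The levels at 6 months were 13.9, 12.2, 13.6 and 12 CPM in wt and 192, 129, 177 and 175 CPM in tg. All 12 libraries of the other groups lay between 5.07 and 15.2 CPM, and the lowest tg library at 6 months was 8.48 times the highest of them. The difference between tg and wt was thus 0.26 on the log2 scale at 4 months (SE 0.24, 95% interval −0.26 to 0.78) and 3.70 at 6 months (SE 0.26, interval 3.14 to 4.26). The interaction was 3.44 (SE 0.35, interval 2.70 to 4.18, edgeR adjusted p = 0.00044), a 10.8-fold larger ratio of tg to wt at 6 months (interval 6.49 to 18.1). Within tg, Cst7 rose by 3.74 from 4 to 6 months (SE 0.26, edgeR adjusted p = 2.1e-06), the 1 gene called between ages in tg (1444 genes, 10.1%, at an unadjusted p under 0.05). That count was 19 without wt replicate 3 at 6 months, 51 with limma-voom and 257 with DESeq2. In wt the same difference was 0.31 (SE 0.24, edgeR adjusted p = 0.91), and edgeR called 0 genes between ages there (943 genes, 6.59%, at an unadjusted p under 0.05), limma-voom 0 and DESeq2 21.

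The share of genes called in the interaction was 0.00699%, and the next smallest adjusted p was 0.99998. At an unadjusted p under 0.05 there were 464 genes (3.24%), 219 (1.53%) with a larger and 245 (1.71%) with a smaller tg-to-wt ratio at 6 months. The comparisons inside the interaction gave few calls as well. Between tg and wt at 6 months Cst7 alone was called by edgeR (750 genes, 5.24%, at an unadjusted p under 0.05), and 26 genes by DESeq2. At 4 months edgeR called 0 genes (338, or 2.36%, at an unadjusted p under 0.05), as did DESeq2 (465 at that p) and limma-voom (715 at that p). DESeq2 called 5 genes in the interaction: Cst7, Dynlt3, Psmd14, Taf1a and Peg3. Peg3 rests on zeros, with 0 CPM in 3 of 4 wt libraries at 4 months and in all 4 tg libraries at 6 months, so no fold is given. The call of Cst7 was lost when the 9-month libraries shared the estimate of spread (adjusted p = 0.99992 with all 24, at the same log2 of 3.44). It was also lost in 23 libraries, without the low-count tg library of 9 months (edgeR adjusted p = 0.99987). The call held in 22 libraries (edgeR adjusted p = 0.00027), which also left out wt replicate 1 of 9 months, at 287 CPM of Cst7. That set was chosen after the data were seen and lacks the wt library highest in Cst7, so it cannot test the call.

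**Figure D1:**
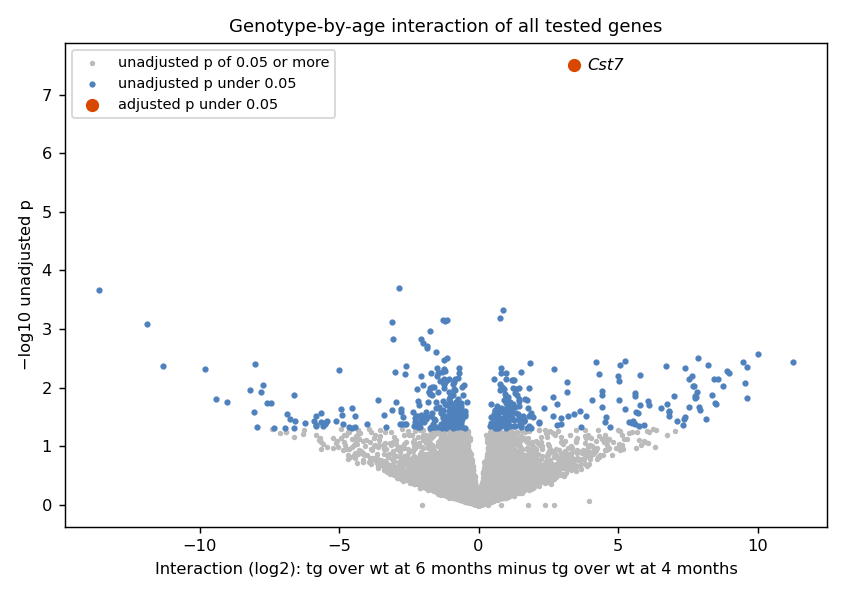
Each point is 1 of 14303 genes, with the interaction on the log2 scale on the x axis and −log10 of its unadjusted p on the y axis. Cst7, at 3.44, stands above all other genes, and the 464 genes at an unadjusted p under 0.05 lie on both sides of 0.

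Of the 35 DAM stage 2 genes, 31 passed the filter on low values, and 26 of these had a positive interaction and 5 a negative one, where 50.7% of all tested genes were positive. The median of the 31 was 0.27, with 0.007 for all genes. It was 0.17 without wt replicate 2 and 0.42 without tg replicate 4 at 4 months, the range over single libraries left out, and 0.44 with 27 positive without both libraries that stood apart. The median difference between tg and wt was −0.09 at 4 months and 0.39 at 6 months. The mean log2 CPM over the 31 genes (with a prior count of 3) was 5.52 to 5.87 in the wt libraries and 5.63 to 5.91 in the tg libraries at 4 months. The 6-month values were 5.64 to 6.06 in wt and 6.31 to 7.02 in tg, so the groups did not overlap at that age. In the interaction edgeR called Cst7 alone of this list, and 5 genes had an unadjusted p under 0.05 with a positive sign (1.53% of all genes). Between tg and wt at 6 months DESeq2 also called Clec7a (adjusted p = 0.00055), Igf1 (0.0073) and Baiap2l2 (0.034), which edgeR did not. Every tg library at 6 months lay above all 12 others for Cst7, Clec7a, Igf1, Ank and Ccl4, a pattern held by 0.35% of all tested genes (1.61% had tg above wt at 6 months, and 1.67% at 4 months). Baiap2l2 had it too, but Baiap2l2 and Lilrb4a passed the filter only through the tg libraries at 6 months and so had to be high there. Both are among the 31 genes, so the counts, medians and means of the list are partly set by the filter at 6 months. The share of 0.35% over all tested genes is partly set in the same way. The list values also contain Cst7, and values without these genes are not given. The 4 genes that did not pass the filter were Gpnmb (over 0 in 5 libraries, at most 3.62 CPM), Fabp5 (10 libraries, at most 1.75), Dkk2 (2 libraries, at most 1.90) and Atp6v0d2 (0 in all 16).

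Among the surface receptors of this list, Clec7a (ENSMUSG00000079293) encodes dectin-1, a phagocytic receptor. Its level at 4 months was 12.9, 25.8, 20 and 7.27 CPM in wt and 23, 24.6, 17.3 and 22.6 CPM in tg. At 6 months it was 23.7, 32.3, 14.5 and 28.4 CPM in wt and 75.5, 61.6, 98.0 and 98.9 CPM in tg. The tg libraries at 6 months lay above all others, and the interaction was 1.35 (SE 0.47, interval 0.36 to 2.34), which did not pass the test (edgeR adjusted p = 0.99998). Itgax, the integrin chain CD11c, was at 0.533 to 15.6 CPM in wt and 4.03 to 8.24 CPM in tg at 4 months, and 1.09 to 11.8 and 6.64 to 37.0 CPM at 6 months. The ranges of Itgax overlapped at both ages, and its interaction of 1.71 (SE 1.28) was 0.12 without wt replicate 4 at 4 months and 1.05 without tg replicate 4 at 6 months. Axl, a receptor kinase for the clearance of dead cells, overlapped too, at 1.65 to 40.8 CPM in wt and 9.31 to 42.1 CPM in tg at 6 months.

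Of the secreted products, Igf1 (ENSMUSG00000020053) encodes insulin-like growth factor 1. It was at 4.51, 1.20, 4.69 and 3.86 CPM in wt and 4.83, 1.71, 3.23 and 1.41 CPM in tg at 4 months. At 6 months 2 wt libraries had 0 CPM and the others 1.20 and 3.39 CPM, while the tg libraries were at 16.9, 8.87, 22.9 and 23.2 CPM. The interaction of Igf1 was 4.30 with a wide interval of 1.44 to 7.17 (SE 1.36), with 2 of the wt libraries behind it at 0. Spp1, the matrix protein osteopontin, had a positive tg-to-wt difference at both ages. It was at 1.70, 4.04, 2.88 and 0.988 CPM in wt and 13.3, 7.44, 8.59 and 7.45 CPM in tg at 4 months, so the groups did not overlap. At that age 1 of the 31 stage 2 genes had every tg library above every wt library, as did 1.67% of all tested genes. Spp1 was not called there, where edgeR called 0 genes. Its 6-month levels were 4.50, 13.9, 4.56 and 9.47 CPM in wt and 25.0, 5.53, 40.9 and 25.8 CPM in tg. The tg-to-wt difference of Spp1 was 1.93 at 4 months and 1.58 at 6 months, and the interaction was −0.35 (SE 0.78, interval −2.0 to 1.30), running from −0.73 without wt replicate 2 at 4 months to 0.041 without wt replicate 2 at 6 months.

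The chemokine genes Ccl3, Ccl4 and Ccl6, whose products attract leukocytes, had positive interactions. Ccl6 was at 377 to 647 CPM in wt and 307 to 443 CPM in tg at 4 months, and 411 to 592 and 558 to 782 CPM at 6 months, with an interaction of 0.66 (SE 0.25, interval 0.12 to 1.19). Ccl4 was at 48.9 to 60.1 CPM in tg at 6 months against 36.5 to 47.4 CPM in wt. Ccl3 was at 37.8 to 74.2 CPM in tg at 6 months and 17.0 to 41.4 CPM in wt, which overlapped.

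For lipid and mineral handling, Lpl encodes lipoprotein lipase and Ank a pyrophosphate transporter. Lpl was at 5.27, 23.9, 16.6 and 10.1 CPM in wt and 15.0, 12.6, 12.4 and 14.4 CPM in tg at 4 months. Its 6-month levels were 14.2, 6.01, 40.6 and 22.3 CPM in wt and 49.6, 39.0, 57.7 and 63.4 CPM in tg. The highest wt library, replicate 3, lay above the lowest tg library, and the interaction of Lpl was 1.37 (SE 0.67, interval −0.05 to 2.79). Ank was at 16.6 to 24.5 CPM in wt and 13 to 18.5 CPM in tg at 4 months, and 7.10 to 33.6 and 33.9 to 56.1 CPM at 6 months. Its interaction was 1.46 (SE 0.57, interval 0.25 to 2.66). Baiap2l2, an adaptor of membrane curvature, had 0 counts in all 8 wt libraries, 0 to 1.41 CPM in tg at 4 months and 2.63 to 4.13 CPM in tg at 6 months, which gives no usable fold.

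The abundant lysosomal and membrane genes of stage 2 showed small interactions. The receptor Trem2 was at 1951 to 2188 CPM in wt and 1812 to 2076 CPM in tg at 4 months, and at 1902 to 2812 and 2175 to 2594 CPM at 6 months. Its interaction of 0.18 (SE 0.16) had an interval of −0.16 to 0.52, and was 0.11 without wt replicate 1 and 0.31 without wt replicate 3 at 6 months. The scavenger receptor Cd68 was at 1965 to 2912 CPM in wt and 1782 to 2889 CPM in tg at 6 months, the tetraspanin Cd9 at 1925 to 2528 and 1760 to 2418 CPM, and the protease Ctsz at 2735 to 3707 and 3002 to 3468 CPM. Ranges of the tg and wt libraries overlapped for each of these. In 12 of the 31 stage 2 genes the 95% interval of the interaction lay within 1 log2 unit of 0, among them Trem2, Cd68, Cd9 and Ctsz.

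**Figure D2:**
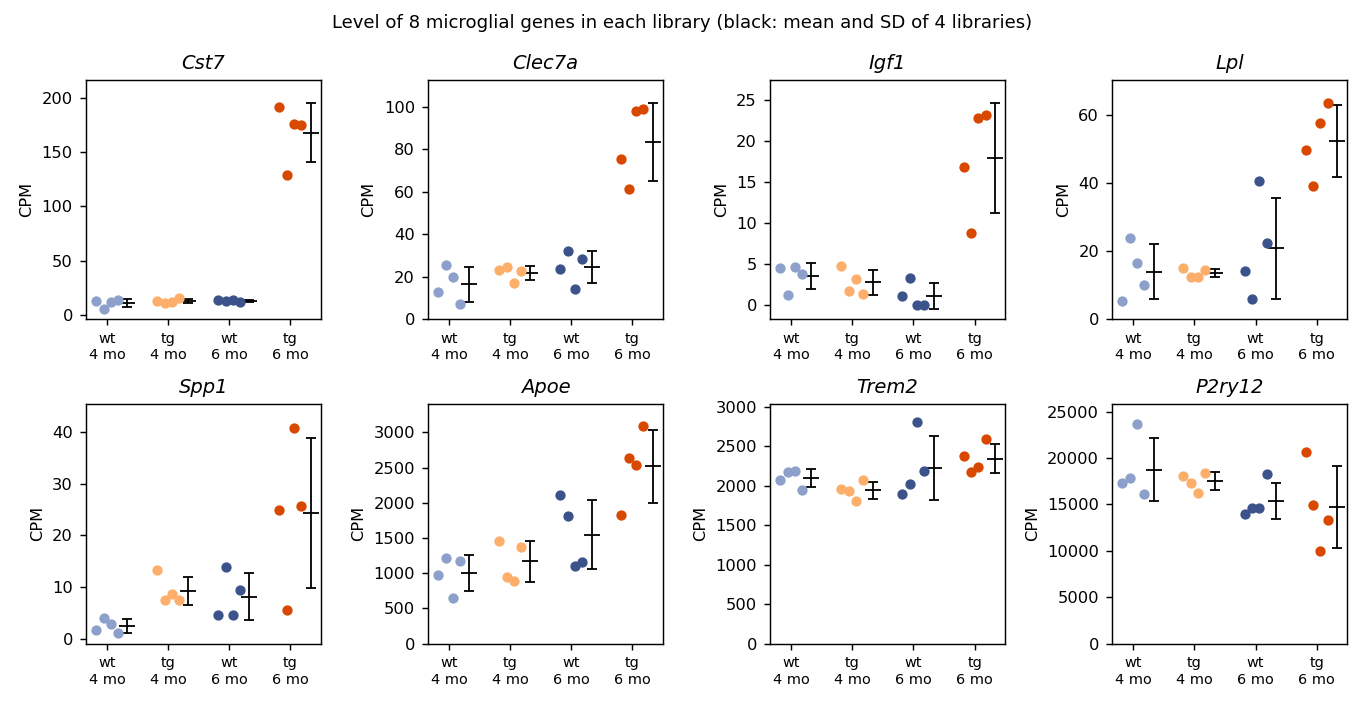
Points are the CPM of single libraries for 8 genes in the 4 groups, and black marks give the mean and SD of 4 libraries. Cst7, Clec7a and Igf1 stand apart in the 4 tg libraries at 6 months. For Spp1 tg and wt do not overlap at 4 months, as for 1.67% of all tested genes with tg above wt. The ranges of Trem2 and P2ry12 overlap.

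**Figure D3:**
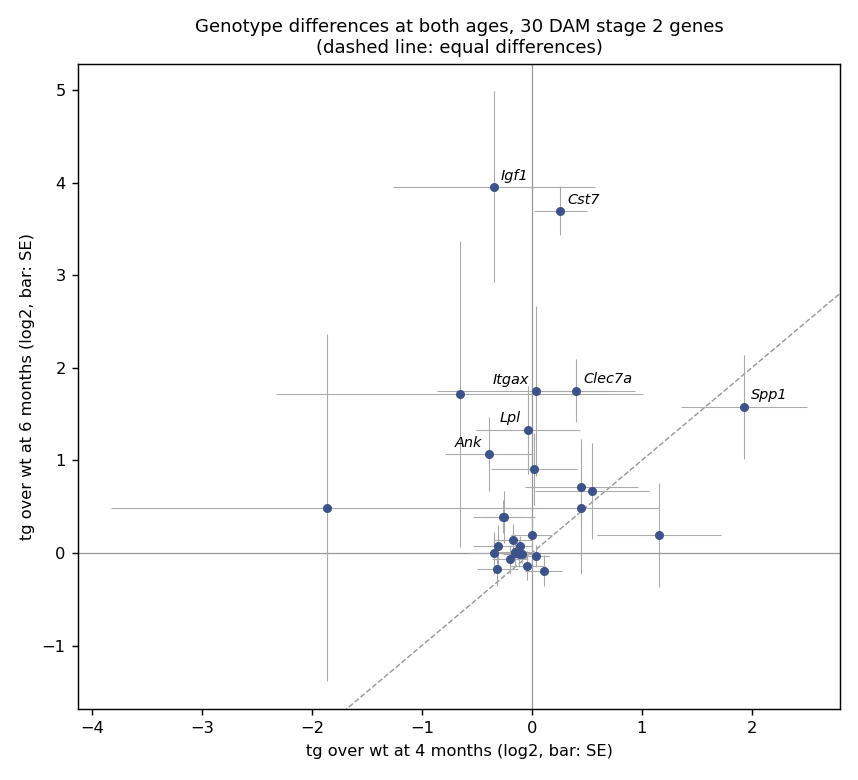
The log2 difference of tg from wt at 4 months (x axis) is plotted against that at 6 months (y axis) for 30 DAM stage 2 genes, with SE bars, leaving out Baiap2l2 because it is at 0 in whole groups. Cst7, Igf1 and Clec7a lie far above the dashed line of equal differences, and Spp1 lies close to it.

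All 10 DAM stage 1 genes were tested, and 7 had a positive interaction, where 50.7% of all tested genes were positive. Their median was 0.10, or 0.06 to 0.28 with each library left out (0.28 without replicate 3 of wt at 6 months). Of the list 0 were called by edgeR, and 1 had an unadjusted p under 0.05 with a positive sign (1.53% of all genes). That gene, Cstb, encodes cystatin B, another inhibitor of cysteine proteases. It was at 51.5 to 63.2 CPM in wt and 30.5 to 59.6 CPM in tg at 4 months, and at 52.7, 51.2, 65.1 and 55.6 CPM in wt and 65.2, 76.6, 71.3 and 94.4 CPM in tg at 6 months. The 6-month groups of Cstb did not overlap, though 65.1 and 65.2 CPM are next to each other, and the interaction was 0.81 (SE 0.28, interval 0.22 to 1.40). Tyrobp, the adaptor of TREM2, was at 738 to 928 CPM in wt and 652 to 902 CPM in tg at 4 months. At 6 months Tyrobp was at 914, 777, 1251 and 785 CPM in wt and 1076, 1070, 1204 and 1368 CPM in tg (interaction 0.43, SE 0.22, interval −0.03 to 0.90). Apoe was at 978, 1217, 650 and 1172 CPM in wt and 1460, 951, 883 and 1374 CPM in tg at 4 months, and at 2109, 1818, 1105 and 1163 CPM in wt and 1829, 2632, 2531 and 3086 CPM in tg at 6 months. The Apoe ranges overlapped at both ages, and its interaction was 0.49 (SE 0.35, interval −0.25 to 1.22). The iron-storage gene Fth1 was at 1075 to 1328 CPM in wt and 947 to 1096 CPM in tg at 4 months, and at 1395 to 1643 and 1327 to 1751 CPM at 6 months. The lysosomal protease gene Ctsb was at 4967 to 6131 and 5345 to 6462 CPM at 4 months and at 4855 to 5886 and 4989 to 6638 CPM at 6 months. Its relative Ctsd was at 4241 to 7856 and 6349 to 8706 CPM at 4 months and at 5175 to 6212 and 5727 to 6866 CPM at 6 months. Ranges of tg and wt overlapped at both ages for Fth1, Ctsb and Ctsd.

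The receptor complex of TREM2 and the kinases downstream of it were covered by 18 genes, of which 6 had a positive and 12 a negative interaction (median −0.15, or −0.31 without wt replicate 3 and −0.03 without wt replicate 2 at 6 months, the range over single libraries left out). None were called by edgeR, and 2 had an unadjusted p under 0.05, both negative (1.71% of all genes). Of all tested genes 50.7% had a positive interaction. Plcg2, the phospholipase activated by SYK, was at 92.6 to 171 CPM in wt and 146 to 233 CPM in tg at 4 months, and at 124 to 230 and 89 to 140 CPM at 6 months. Its interaction was −0.86 (SE 0.33, interval −1.56 to −0.15). Syk was at 52.4, 57.3, 42.5 and 83.3 CPM in wt and 76.9, 123, 103 and 86.9 CPM in tg at 4 months, but at 62 to 85.8 and 66.6 to 80.9 CPM at 6 months. The difference between tg and wt for Syk was 0.73 at 4 months and 0.06 at 6 months, and the interaction of −0.66 (SE 0.29) did not pass the test. The lipid phosphatase gene Inpp5d was at 223 to 529 CPM in wt and 369 to 858 CPM in tg at 4 months, and at 291 to 409 and 265 to 385 CPM at 6 months. The exchange factor gene Vav1 was at 222 to 339 and 317 to 468 CPM at 4 months, and at 175 to 319 and 246 to 296 CPM at 6 months. Fcer1g, an adaptor that shares the signalling motif of TYROBP, was at 1564 to 2153 and 1345 to 1781 CPM at 4 months, and at 1742 to 2691 and 1794 to 2083 CPM at 6 months. All of these ranges overlapped between genotypes.

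Among 30 homeostatic genes, 12 had a positive and 18 a negative interaction, beside 50.7% positive for all tested genes. Their median was −0.04. This direction was not stable: with each library left out the median ran from −0.12 to 0.04 with 7 to 19 positive. It was above 0 without wt replicate 4 at 4 months, wt replicate 3 at 6 months or tg replicate 3 at 6 months, and 0.08 without both libraries that stood apart. None were called by edgeR or had an unadjusted p under 0.05, and the interval lay within 1 log2 unit of 0 for 26 of the 30. The purinergic receptor gene P2ry12 was at 16076 to 23666 CPM in wt and 16242 to 18433 CPM in tg at 4 months, and at 13990 to 18271 and 10030 to 20644 CPM at 6 months (interaction 0.04, SE 0.24, or −0.17 without tg replicate 1 and 0.20 without tg replicate 3 at 6 months). Tmem119 was at 3520 to 7432 and 6607 to 8797 CPM at 4 months and 4971 to 6080 and 4918 to 5590 CPM at 6 months (−0.24, SE 0.25). Without wt replicate 3 at 4 months it was −0.043, and without tg replicate 3 at 4 months −0.13. The fractalkine receptor gene Cx3cr1 had the smallest p of the list, at 6193 to 11087 CPM in wt and 9770 to 14898 CPM in tg at 4 months, and 6794 to 8877 and 6398 to 7921 CPM at 6 months (−0.38, SE 0.24, interval −0.89 to 0.13). For Cx3cr1 leaving out the same libraries gave −0.22 and −0.24. The growth factor receptor gene Csf1r was at 2786 to 7071 CPM in wt and 5039 to 11863 CPM in tg at 4 months, and at 4174 to 5748 and 3552 to 4509 CPM at 6 months. Sall1, a microglial transcription factor gene, was at 336 to 516 and 388 to 510 CPM at 4 months and at 361 to 477 and 363 to 490 CPM at 6 months. Siglech, a lectin gene, was at 1112 to 1223 and 1111 to 1311 CPM at 4 months and at 1233 to 1470 and 1235 to 1432 CPM at 6 months. These defining microglial markers were thus present in all 16 libraries. Ranges of tg and wt overlapped at both ages for all 6 of these genes.

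Genes of energy metabolism and translation mostly had small positive interactions, with no gene called. Of all tested genes 50.7% were positive. Of 38 nuclear genes of oxidative phosphorylation, 34 had a positive interaction (median 0.23). Without tg replicate 3 at 4 months 29 were positive (0.12), without wt replicate 2 at 6 months 31 (0.13), and without tg replicate 4 at 4 months or wt replicate 3 at 6 months 35 (0.38 each). Their median difference between tg and wt was −0.20 at 4 months and 0.06 at 6 months. Cox4i1, a subunit of cytochrome oxidase, was at 203 to 242 CPM in wt and 177 to 235 CPM in tg at 4 months, and 236 to 313 and 253 to 334 CPM at 6 months. Of 13 mitochondrially encoded genes 8 passed the filter. Those that did not pass included mt-Co2 (at most 0.33 CPM), mt-Co3 (at most 0.95 CPM) and mt-Atp8 (0 CPM). The cause of these low counts was not tested, so the list covers only a part of these genes. Of the 8 tested 7 were positive (median 0.28, with −0.40 at 4 months and −0.11 at 6 months). That median was 0.14 without wt replicate 2 at 4 months, 0.18 and 0.16 without tg replicates 3 and 4 at 6 months, 0.42 without wt replicate 3 and 0.44 without tg replicate 2 at 6 months. Among them mt-Nd1, a subunit of complex I, was at 582 to 948 CPM in wt and 502 to 627 CPM in tg at 4 months, and 742 to 952 and 614 to 1002 CPM at 6 months. Of 43 ribosomal protein genes 34 were positive (median 0.28, with −0.17 and 0.03), and the median was 0.18 without tg replicate 3 at 4 months and 0.43 without wt replicate 3 at 6 months. Many ribosomal protein genes have near-identical pseudogenes that can share their reads, so their single values are uncertain. No gene of these 3 lists was called by edgeR, and none had an unadjusted p under 0.05 (3.24% of all genes).

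The counts of positive interactions in the lists below stand beside 50.7% for all tested genes. In the glycolysis list 7 of 20 genes were positive (median −0.17). That median was −0.039 without wt replicate 3 and −0.04 without tg replicate 3 at 4 months. It was −0.10 without wt replicate 2 at 6 months. Single genes went both ways. At an unadjusted edgeR p under 0.05, 3 were positive (1.53% of all genes) and 1 was negative (1.71% of all genes). Pfkfb3, the enzyme that makes the activator of phosphofructokinase, was at 58.6 to 118 CPM in wt and 104 to 227 CPM in tg at 4 months, and at 88.7 to 153 and 68.7 to 101 CPM at 6 months (interaction −1.24, SE 0.38, interval −2.05 to −0.44). Tpi1, triosephosphate isomerase, was at 63.5 to 103 and 66.8 to 90 CPM at 4 months and at 71.9 to 104 and 113 to 130 CPM at 6 months (0.60, SE 0.24, interval 0.09 to 1.1), with every tg library at 6 months above all others. Of 35 proliferation genes 21 were positive, with a median of 0.10 that ran from −0.05 to 0.46 with each library left out. Fen1, of this list, is described with the genes of smallest p. The replicative helicase gene Mcm6 was at 18.1 to 36.5 CPM in wt and 17.4 to 57.5 CPM in tg at 4 months, and at 33.2 to 39.3 and 11.5 to 19.7 CPM at 6 months (−1.45, SE 0.45, interval −2.42 to −0.49). Aurkb, a kinase of cell division, had 0 CPM in 3 of 4 wt libraries at 6 months and 2.53 to 9.98 CPM in tg, so no fold is given. Of 31 orthologues of genes near Alzheimer risk variants, 15 were positive (median −0.02, range −0.09 to 0.03 with each library left out), and the sorting receptor gene Sorl1 was at 5.59 to 31.5 CPM in wt and 17.5 to 37.2 CPM in tg at 4 months. At 6 months Sorl1 was at 27.2 to 35 CPM in wt and 10.9 to 20.5 CPM in tg (−1.34, SE 0.55, interval −2.51 to −0.18). The interferon-response list had 19 of 31 genes positive (median 0.36), none at an unadjusted p under 0.05, and single libraries moved it widely, to 0.073 without tg replicate 4 and 0.58 without tg replicate 2 at 6 months. The medians of the other lists are given here with their range when each library was left out. That range crossed 0 for all but lipid handling, which stayed above 0, and immediate early genes, which stayed below 0. Lipid handling had 12 of 16 positive (0.08, range 0.03 to 0.22), and 0.30 without both libraries that stood apart. Lysosome genes had 16 of 29 (0.04, range −0.05 to 0.12), cytokines and chemokines 12 of 21 (0.07, range −0.05 to 0.15), and complement and Fc receptors 7 of 13 (0.02, range −0.06 to 0.10). MHC class I had 4 of 9 (−0.02, range −0.09 to 0.05) and MHC class II 4 of 6 (0.05, range −0.18 to 0.31). The unfolded protein response had 8 of 17 (−0.05, range −0.14 to 0.04), cholesterol synthesis 8 of 17 (−0.17, range −0.32 to 0.25) and TGF-beta signalling 7 of 15 (−0.008, range −0.15 to 0.13). Immediate early genes had 6 of 19 (−0.20, range −0.57 to −0.002) and the circadian clock 7 of 16 (−0.15, range −0.37 to 0.16). Without both libraries that stood apart the median was 0.09 for the lysosome, 0.15 for complement and Fc receptors, −0.02 for MHC class II, 0.06 for the unfolded protein response, 0.23 for TGF-beta signalling, −0.49 for immediate early genes and −0.35 for the clock. In the interaction edgeR called no gene of these lists.

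**Figure D4:**
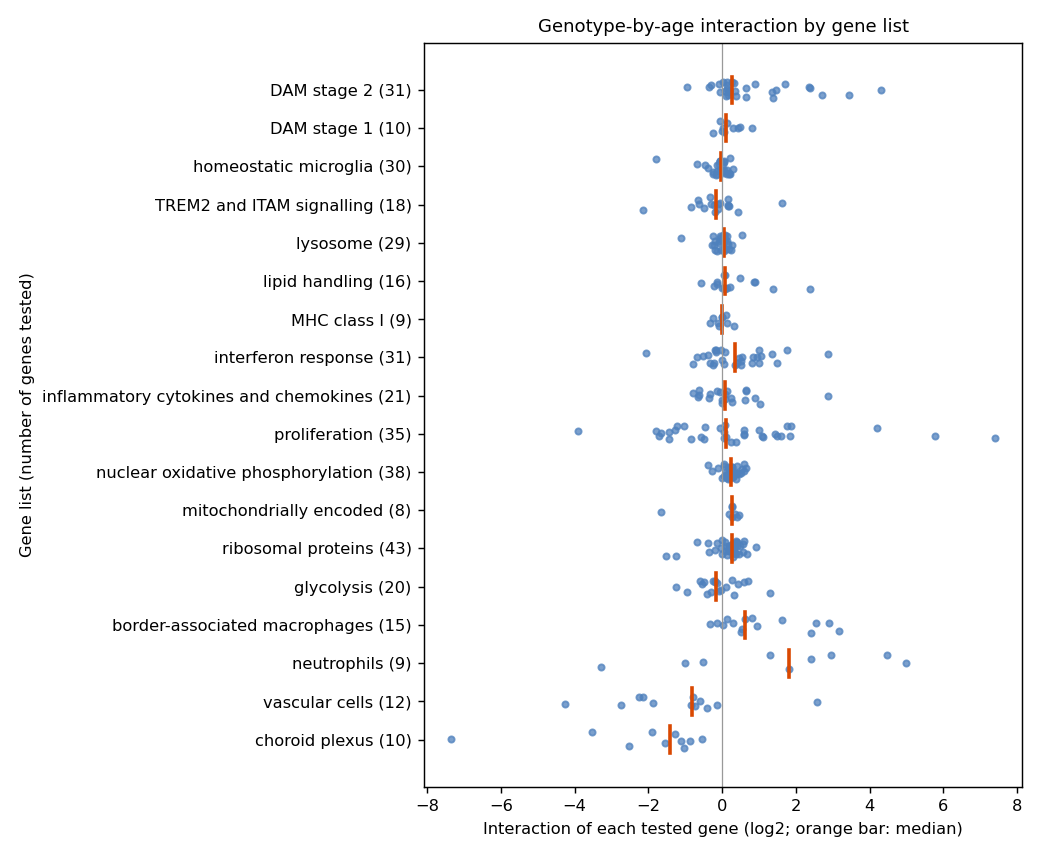
Points are the interactions (log2) of the tested genes of 18 lists and orange bars are their medians. The DAM stage 2 median is 0.27 with a tail of high genes, homeostatic genes are grouped around 0, and choroid plexus genes are all below 0 with a median of −1.41.

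The genes with the smallest p-values after Cst7 are described next, all of which missed the threshold at an edgeR adjusted p = 0.99998. Their interactions came from different groups. Of the 12 positive genes, Cst7 included, the group farthest from the other 3 was wt at 6 months for 7, wt at 4 months for 2, tg at 6 months for 2 and tg at 4 months for 1. Many of these rest on low counts. Gm21781 and 2810403G07Rik were at 0 in every wt library at 6 months. Bbc3, Tmod2 and Star had means of 0.05, 0.36 and 0.41 CPM there, near or under the floor. Xrcc3 and Cyp39a1, with wt at 4 months farthest, were at 0 in every wt library at 6 months as well. Dynlt3, a dynein light chain, and Psmd14 had wt at 6 months farthest at higher levels. Dynlt3 was at 78.0, 87.9, 90.7 and 81.2 CPM in wt and 74.1, 78.2, 69.1 and 80.5 CPM in tg at 4 months. At 6 months it was at 43.8, 46.1, 52.1 and 51.2 CPM in wt and 77.8, 68.9, 73.9 and 71.9 CPM in tg. The wt libraries at 6 months lay below all others, and the interaction of Dynlt3 was 0.76 (SE 0.18, DESeq2 adjusted p = 0.0088). Psmd14, a deubiquitinase of the proteasome, was at 86.6 to 109 CPM in wt and 61.2 to 87.3 CPM in tg at 4 months, and at 53.8 to 68.5 and 84.5 to 91.3 CPM at 6 months. The tg libraries were mostly below wt at 4 months and all above wt at 6 months, and the interaction of Psmd14 was 0.89 (SE 0.20, DESeq2 adjusted p = 0.029).

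Of the 12 negative genes, tg at 6 months stood farthest from the rest in 6, wt at 6 months in 3, tg at 4 months in 2 and wt at 4 months in 1. Zfp141, a zinc finger gene, was at 24.1 to 31.3 CPM in wt and 19.6 to 47.7 CPM in tg at 4 months. At 6 months Zfp141 was at 22.8, 26.7, 18.4 and 28.1 CPM in wt and 11, 2.46, 4.95 and 5.26 CPM in tg, below all 12 other libraries (interaction −2.07, SE 0.54). Fen1, the flap endonuclease of DNA replication, was at 50 to 71.6 and 46.4 to 79.6 CPM at 4 months. Its 6-month levels were 68.2, 99, 98.6 and 81 CPM in wt and 43.8, 32.8, 31.5 and 26 CPM in tg (−1.28, SE 0.31). Gm10143 had nearly the same pattern (−1.20, SE 0.29). It overlaps Fen1 on the other strand in GENCODE vM21, and with the strand setting not given in the sources used here, reads of the pair cannot be told apart. Taf1a, a subunit of the RNA polymerase I initiation factor, was apart at 4 months instead, at 2.87 to 3.70 CPM in wt and 9.53 to 16.3 CPM in tg, with 6.56 to 22.3 and 3.07 to 8.46 CPM at 6 months (−2.84, SE 0.60, DESeq2 adjusted p = 0.012). Brox, of the endosomal ESCRT machinery, was at 34.3 to 47.4 and 50.7 to 59.5 CPM at 4 months and 41.6 to 72.7 and 27 to 38 CPM at 6 months (−1.14, SE 0.28).

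Every tg library at 6 months lay above the 12 other libraries for 50 genes (0.35%) and below them for 23 (0.161%). A gene that passed the filter only through the tg libraries at 6 months had to lie above the others. The count of 50 is thus partly set by the filter, the count of 23 is not, and they are not compared. By the ratio of the lowest of these tg libraries to the highest other library, Cst7 (8.48) came before Bhlhe40 (2.95). Tcap, a sarcomere protein gene picked with its values in view and outside the naming rule, had 1.86 to 4.43 CPM in tg at 6 months and at most 0.200 CPM elsewhere, under the floor, so no ratio is given. Tcap passed the filter only through the tg libraries at 6 months and so had to be high there. It was not called in the interaction by edgeR, DESeq2 or limma-voom. Limma-voom called it between ages in tg, a difference that the filter had partly set in advance. Bhlhe40, a transcription repressor gene picked in the same way, was at 12.3, 9.05, 9.12 and 18 CPM in tg at 6 months and at 0 to 3.06 CPM in the other libraries. Bhlhe40 was not called in the interaction by edgeR, DESeq2 or limma-voom. It belongs to the circadian clock list, where 0 genes had an unadjusted edgeR p under 0.05 in the interaction. Clec7a was at a ratio of 1.91 and Igf1 at 1.84.

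Markers of other cells differed widely between libraries. The counts of positive interactions below stand beside 50.7% for all tested genes. All 10 choroid plexus genes had a negative interaction (median −1.41, or −2.18 without wt replicate 2 at 4 months and −0.67 without wt replicate 1 at 6 months). Their summed level was 604.9, 1584, 80.8 and 1092 CPM in wt and 1236, 1870, 1310 and 1572 CPM in tg at 4 months. At 6 months it was 2866, 1218, 2.65 and 1822 CPM in wt and 200.5, 1855, 1649 and 358.7 CPM in tg. The low wt library at 6 months is replicate 3, which stood apart, and the ranges overlapped at both ages. Without both libraries that stood apart all 10 were still negative (median −2.32). Of 12 vascular genes 1 was positive (median −0.82, or −1.42 without wt replicate 1 and −0.49 without wt replicate 4 at 4 months, and −1.30 without tg replicate 3 at 6 months). Their median difference between tg and wt was 0.93 at 4 months (11 of 12 positive) and 0.14 at 6 months. Their summed level was 105.4 to 154.8 CPM in wt and 139 to 282 CPM in tg at 4 months, and 104.5 to 160.2 and 124.1 to 179.6 CPM at 6 months. Of 15 genes of border-associated macrophages 13 were positive (median 0.63, or 0.35 without wt replicate 2 at 4 months and 1.02 without wt replicate 1 at 6 months), and without both libraries that stood apart 10 were and the median was 0.09. Cd209a, a lectin receptor of these macrophages, was at 4.59, 4.90, 6.18 and 7.54 CPM in wt and 2.23, 3.12, 2.30 and 3.63 CPM in tg at 4 months. At 6 months it was at 7.61, 0, 5.30 and 5.46 CPM in wt and 22.1, 8.69, 25.7 and 24.2 CPM in tg (interaction 3.17, SE 1.05). The summed level of the list was 263.5 to 352.0 CPM in wt and 225.5 to 487.4 CPM in tg at 6 months, and the part of these cells in the DAM stage 2 values was not tested. Cst7 had the same interaction without both libraries that stood apart (3.44, edgeR adjusted p = 0.0075).

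The 4 neutrophil granule genes S100a8, S100a9, Camp and Ngp together were at 2.21, 209, 34.1 and 30.8 CPM in wt and 14.3, 0, 0 and 23.3 CPM in tg at 4 months. At 6 months they were at 62.2, 16, 144 and 78.2 CPM in wt and 32.6, 41, 51.8 and 118 CPM in tg. The highest library of these genes was wt replicate 2 at 4 months, at 209 CPM. These 4 are a part of the neutrophil list. Of the 9 neutrophil genes tested 6 had a positive and 3 a negative interaction. Their median was 1.81 (0.63 without wt replicate 2 and 2.84 without tg replicate 4 at 4 months). Summed over all 9, the level was 167.6 to 521.1 CPM in wt and 200.6 to 512.8 CPM in tg at 4 months. At 6 months it was 232.5 to 348.4 CPM in wt and 172.1 to 354.5 CPM in tg. For both choroid plexus and neutrophil genes the ranges of tg and wt overlapped at 6 months. Astrocyte genes had 10 of 15 positive (median 0.66, range 0.26 to 1.57 with each library left out). The direction turned with single libraries for oligodendrocyte lineage genes (2 of 12 positive, −0.16, range −0.38 to 0.04), neuron genes (4 of 9, −0.21, range −0.70 to 0.48) and monocyte genes (4 of 6, 0.57, range −1.09 to 0.90). Lymphocyte genes had 1 of 3 positive (−0.07, range −0.16 to −0.03) and erythrocyte genes 1 of 4 (−0.79, range −2.5 to −0.42). The part of any of these cells in the values of other genes was not tested.

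**Figure D5:**
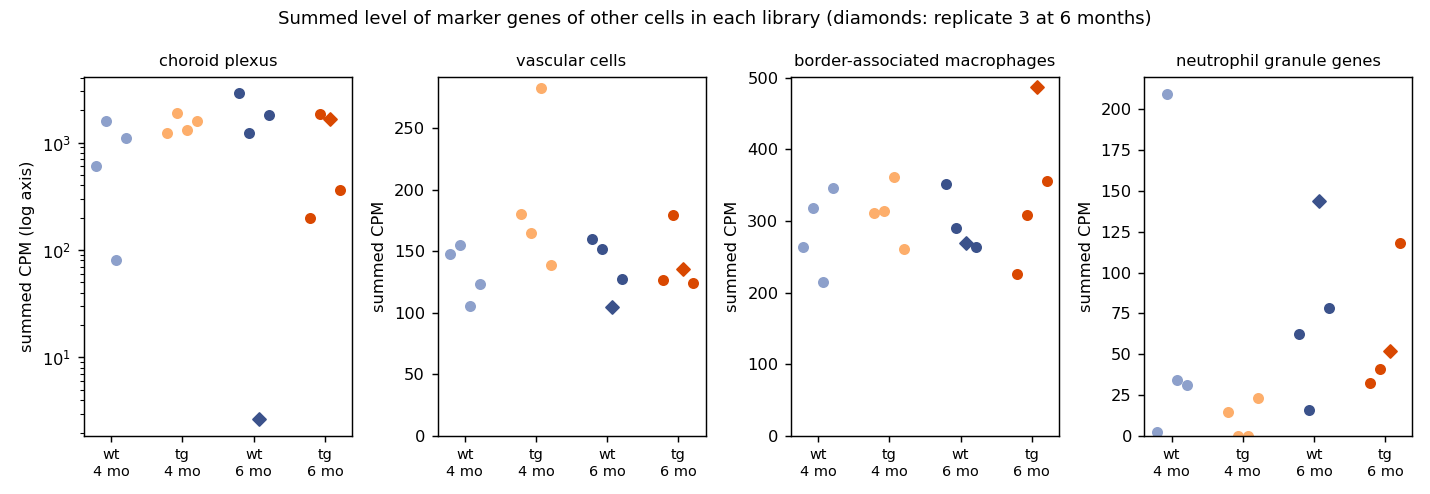
Each point is the summed CPM of marker genes in 1 library, over the whole list except for neutrophils, where only the 4 granule genes are summed. The axis is logarithmic for the choroid plexus and linear for the others, and diamonds mark replicate 3 at 6 months. Choroid plexus genes are at 2.65 CPM in wt replicate 3 at 6 months, and the sum for border-associated macrophages is highest in tg replicate 3 at 6 months (487.4).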

How the data were processed

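The authors deposited raw counts of reads per gene, 1 table for each library and a table for the series. Per the submitters' processing notes the build was GRCm39 and the tools included HTSeq 0.11.0, TopHat, Picard 2.13.2, cutadapt 2.10, SAMtools 1.10 and FastQC 0.11.9. Annotation release, strand setting and duplicate handling: not given in the sources used here. The series table equals the library files summed by symbol for all 36982 symbols. Groups, ages and replicate numbers come from the labels. All 16 libraries at 4 and 6 months were kept.

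In R 4.3.3, genes with at least 1 CPM in 4 libraries were kept, TMM factors were computed, and edgeR 4.0.16 fitted 4 group means over the 16 libraries (robust quasi-likelihood), with Benjamini-Hochberg adjustment over 14303 genes. The biological coefficient of variation was 59.3%. The fit was tested on simulated data. Alternatives used DESeq2 1.42.0, limma 3.58.1 (voom with quality weights), other filters and scaling, other sets of libraries, a replicate block and each library left out.

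The comparison and the 33 gene lists were chosen with earlier results of these data known, so counts over lists are descriptions. Named genes are those called, filled to 12 each way by the smallest p, up to 4 per list by p, all members of the DAM, homeostatic and TREM2 lists, App and Prnp, and 1 more gene that is not reported here. A gene outside this rule is marked as picked with its values in view. Annotation of another build was used only for names, for neighbouring genes and for the printed promoters, and no other positions are given. Library totals set the precision of each level, while floors cover counting error only, and intervals come from the spread between libraries.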

Additional observations from a re-analysis of the deposited data

Results flagged for a closer look

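Cst7 differed between ages in its difference between tg and wt, by the test of the interaction itself (3.44 on the log2 scale). The libraries at 9 months entered only the alternative fits with 24, 23 or 22 libraries, and no contrast compares them. In them Cst7 was also high in tg. The lowest of 3 tg libraries was at 392 CPM, with the tg library of 6325 counts left out. The wt libraries were at 15.9, 29.8, 11.4 and, in replicate 1, 287 CPM.

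Of 140 sets of 4 libraries (35 genes in 4 groups), 10 held a library far from its other 3, where chance gives about 1 in 20, or 7. Cx3cr1 and Tmem119 were both low in wt replicate 3 at 4 months, at 6193 CPM (others 10467 to 11087) and 3520 CPM (others 7035 to 7432). Replicate 3 of tg at 4 months was high for Tmem119, at 8797 CPM (others 6607 to 6838), and for Pfkfb3, at 227 CPM (others 104 to 121). P2ry12 was at 18271 CPM in wt replicate 4 at 6 months (others 13990 to 14638), and Paqr4 in the same library was at 4.94 CPM (others 9.40 to 9.75). Plcg2 was at 230 CPM in wt replicate 2 at 6 months (others 124 to 131). Kpna6 was at 37.6 CPM in wt replicate 2 at 4 months (others 15.8 to 16.4), Zfp141 at 47.7 CPM in tg replicate 2 at 4 months (others 19.6 to 24.2) and Sorl1 at 10.9 CPM in tg replicate 4 at 6 months (others 18.9 to 20.5).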

How the results depend on the processing

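Over 29 alternatives (27 planned) the interaction called 1 gene, Cst7, except 0 with all 24 or 23 libraries (without the tg library of 6325 counts) in the fit and 5 with DESeq2. With each library left out it called 1. The same fits called 0, 0 and 26 genes between tg and wt at 6 months (1 to 3 with each library left out: 3 without tg 4 months replicate 3 or tg 6 months replicate 1, 2 without wt 6 months replicate 1) and 0 throughout at 4 months. Within wt, DESeq2 called 21 between ages and edgeR 0 with each library left out. Within tg the counts were 0 with 24 or 23 libraries, 3 with 22, 257 with DESeq2, 51 with limma-voom and 1 to 19 with each library left out (19 without wt 6 months replicate 3). The fit with 22 libraries, that without both libraries that stood apart and the list medians under other settings were chosen after seeing the data. The log2 interaction of Cst7 ran from 3.32 to 3.67, and it was called in 27 of the 29. Of 35 named genes, 29 kept their direction and side of the threshold in every alternative. With each library left out, Spp1 ran from −0.73 to 0.041 (0.041 without wt 6 months replicate 2) and P2ry12 from −0.17 to 0.20, turning to −0.09, −0.003 and −0.17 without wt 4 months replicate 3, wt 6 months replicate 1 and tg 6 months replicate 1. The causes were not tested.

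Replicate numbers did not pair libraries: the 24 same-numbered pairs had correlations of −0.18 to 0.09, and 2 of 16 libraries correlated best with their own number. With a replicate block Cst7 was at 3.37 (edgeR adjusted p = 0.00068), and no count of calls changed.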
